A study of Mus musculus with 12 samples.

Results

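The Lin28 and let-7 axis genes were a set of 8 genes chosen by symbol: Lin28a, Lin28b, Trim71, Hmga1, Hmga2, Igf2bp1, Igf2bp2 and Igf2bp3. Of these 8 genes 6 had a probe set annotated to the symbol, out of 19938 genes with 1 symbol, and they were described by 1 probe set each. Hmga1 and Igf2bp2 were not analysed here. Igf2bp1 had 2 probe sets, of which the one with the higher mean over the 12 arrays was used, and the other 5 measured genes had 1 probe set.

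The arrays came from R1 cells, a mouse embryonic stem cell line, that carried either a knockdown of Set, a histone chaperone and phosphatase inhibitor, or a scrambled control infection. There were 2 knockdown lines, named KD1 and KD2. All 3 lines were sampled on day 4 of retinoic acid (1 µM, in 10% serum without leukemia inhibitory factor; RA), and as growing stem cells in 15% serum with 1000 U/ml of that factor (ESC). This gave 6 groups of 2 arrays: RA KD1, RA KD2, RA scrambled, ESC KD1, ESC KD2 and ESC scrambled. RA and ESC differed in retinoic acid, serum and leukemia inhibitory factor together, so these cannot be told apart. All 6 groups had been infected. The labels call the knockdown and control cells clones, so the knockdown cannot be told apart from other traits of each line. The p-values reflect only how far arrays of the same group lay apart, pooled over the groups, which may be technical.

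The let-7 microRNAs are short RNAs that pair through their seed with sites in messenger RNAs and lower their stability and translation. LIN28A and LIN28B bind let-7 precursors and block their maturation, and LIN28A recruits the uridylyltransferase TUT4 to the precursor. In mouse embryonic stem cells mature let-7 is kept low, and it accumulates on differentiation. TRIM71, HMGA2 and IGF2BP proteins are made from messages that let-7 is known to repress, and Lin28a and Lin28b messages carry let-7 sites themselves.

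The microRNA sequences are shown because the seed is what a let-7 target is read by, and because the loci printed here are those that were called in a comparison below, with let-7a as the family's reference and miR-125a as the neighbour of let-7e. Capitals mark the seed, bases 2 to 8. RefSeq's table gave a mature 5p sequence for 17 of 18 microRNA loci listed.
mmu-let-7a-5p: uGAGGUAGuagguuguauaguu
mmu-let-7e-5p: uGAGGUAGgagguuguauaguu
mmu-let-7i-5p: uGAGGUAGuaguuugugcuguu
mmu-miR-125a-5p: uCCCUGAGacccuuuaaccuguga
mmu-miR-99a-5p: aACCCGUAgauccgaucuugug
The seed of the let-7 sequences was shared by 9 mature sequences from 11 loci, miR-98 among them. The seed of miR-125a was shared with miR-125b (2 mature sequences from 3 loci), and that of miR-99a with miR-99b and miR-100 (3 mature sequences from 3 loci). On build GRCm38.p6, mature let-7e lay at chr17:17830366-17830387 on the plus strand, and mature miR-125a at chr17:17830817-17830840 on the same strand. Mature miR-99a lay at chr16:77598940-77598961 on the plus strand, and mature let-7i at chr10:122985698-122985719 on the minus strand.

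Set itself was lower in both knockdown lines on the brighter 2 of its 4 annotated probe sets, both of which also name BC085271. On the brightest, RA KD1 arrays read 11.16 to 11.28 on the log2 scale and RA KD2 arrays 11.70 to 11.99, against 12.27 to 12.29 in RA scrambled arrays. ESC KD1 arrays read 11.94 to 12.13 and ESC KD2 arrays 11.87 to 12.15, against 12.71 to 12.93 in ESC scrambled arrays. The 2 other probe sets, which name no gene but Set, were not lower in the knockdown lines in RA. The brighter of them read 6.61 to 6.72 in RA KD1 and 6.79 to 7.91 in RA KD2 arrays, against 6.45 to 6.68 in RA scrambled arrays, and the other 6.04 to 6.35 in RA KD1 arrays and up to 7.05 in RA KD2 arrays, against 5.83 to 6.09 in RA scrambled arrays. In ESC the brighter of these 2 read 7.90 to 8.12 in KD1 and 6.91 to 8.54 in KD2 arrays, against 8.39 to 8.82 in scrambled arrays. The other read 6.69 to 6.93 in ESC KD1 and 6.22 to 7.15 in ESC KD2 arrays, against 6.90 to 7.35 in ESC scrambled arrays. Only the first of these KD1 ranges lay wholly below scrambled. Replicate 2 of KD2 went against its label in both states. Over all genes, the array labelled ESC KD2 replicate 2 had a mean Pearson r of 0.952 with the other arrays labelled ESC and 0.986 with those labelled RA, and the array labelled RA KD2 replicate 2 had 0.952 with the other arrays labelled RA and 0.986 with those labelled ESC. Results are therefore given from the fit of all 12 arrays and, where named, from a fit of 10 arrays without these 2, in which KD2 has 1 array per state, whose spread is taken from the groups with 2. Both fits use a spread per gene that is shared by the groups. With 12 arrays it thus includes the distance between the KD2 replicates, also in tests of KD1 or scrambled cells. For Hmga2 in scrambled cells RA minus ESC was 2.73 in both fits, with an SE of 0.72 with 12 arrays and 0.15 with 10. Without the 2 arrays that resembled the other state, the markers of each state followed the labels. The mean over 8 naive stem cell markers lay between 8.97 and 9.74 in RA arrays and between 11.56 and 11.98 in ESC arrays. The mean over 7 retinoic acid response genes lay between 11.24 and 11.30 in RA arrays and between 6.84 and 7.32 in ESC arrays. A bulk array cannot tell fewer cells of a type from less RNA per cell.

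**Figure D1:**
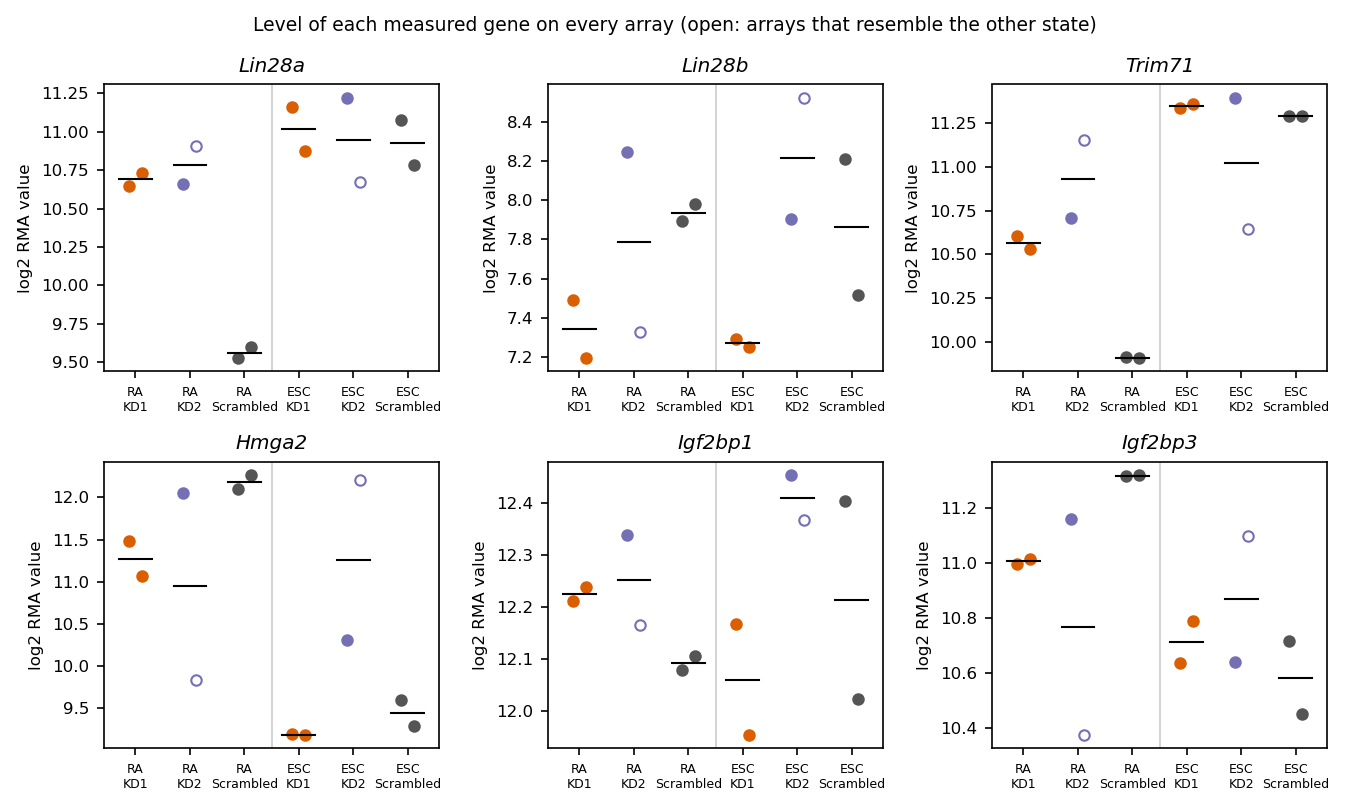
Deposited log2 RMA value (y axis, a separate scale in each panel) of the 6 measured genes on each of the 12 arrays, by group (x axis). Points are arrays, bars are group means of 2 arrays, and open points are the arrays labelled RA KD2 replicate 2 and ESC KD2 replicate 2. RA scrambled arrays are the lowest for Lin28a and Trim71, and the highest for Hmga2 and Igf2bp3 in the RA state.

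Lin28a (chr4:134003330-134019196) fell in RA scrambled cells, and by the fit of 10 arrays the difference was smaller in the KD1 line. Lin28a read 10.65 and 10.73 in RA KD1 arrays, against 11.16 and 10.87 in ESC KD1 arrays. It read 10.66 and, on the array that resembled ESC, 10.91 in RA KD2 arrays, against 11.22 and, on the array that resembled RA, 10.68 in ESC KD2 arrays. It read 9.53 and 9.60 in RA scrambled arrays, against 11.08 and 10.78 in ESC scrambled arrays. The 2 RA scrambled arrays lay below all 10 others. Without the 2 arrays against their labels, the RA KD1 and RA KD2 arrays lay just under the lowest ESC array.

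In KD1 cells the RA minus ESC difference of Lin28a was -0.33 log2 units (adjusted p = 0.264 by limma with 12 arrays, and 0.0819 with 10). A replicate block within each state brought that adjusted p to 0.00367 with 10 arrays. In KD2 cells the labelled groups gave -0.16 with an adjusted p of 1, and the fit of 10 arrays gave -0.56 (SE 0.19, adjusted p = 0.0679). With the block that difference was -0.38 (adjusted p = 0.0324). In scrambled cells the difference was -1.37, a 2.58-fold lower level in RA (SE 0.20, adjusted p = 0.0204 with 12 arrays, and SE 0.13, adjusted p = 5.17e-05 with 10).

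Between lines in RA, Lin28a was higher in both knockdown lines than in scrambled cells. KD1 minus scrambled was 1.13 log2 units (SE 0.20, adjusted p = 0.0268 by limma with 12 arrays, and SE 0.13, adjusted p = 0.000916 with 10). KD2 minus scrambled was 1.22 with 12 arrays (SE 0.20, adjusted p = 0.0662, and 0.0415 with the block) and 1.10 with 10 (SE 0.16, adjusted p = 0.02). The 12-array KD2 values in RA, with and without the block, include the array that resembled ESC, on which Lin28a read 10.91. In ESC, KD1 minus scrambled was 0.09 and KD2 minus scrambled 0.02 with 12 arrays, and neither passed the test. The interaction, the RA minus ESC difference in KD1 cells less that in scrambled cells, was 1.04 log2 units (SE 0.19, adjusted p = 0.0171 with 10 arrays), and it did not pass with 12 arrays (SE 0.29, adjusted p = 0.276). The KD2 interaction was 0.80 with 10 arrays (adjusted p = 0.262), and 0.99 with 10 arrays and the block (adjusted p = 0.00726).

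Some of these calls were lost when 1 array was left out. An array outside a comparison enters its test only through the shared spread and the adjustment over all genes. With 12 arrays the scrambled call of Lin28a was lost without either ESC scrambled, RA scrambled or RA KD1 array (adjusted p up to 0.187). The 12-array KD1 call in RA was lost without either ESC KD1, RA scrambled or RA KD1 array (adjusted p up to 0.246). With 10 arrays the scrambled call and the KD1 call in RA held without each of the 10 arrays. The KD2 call in RA was lost without either RA scrambled or RA KD1 array, with an adjusted p of up to 0.107. The interaction was lost without ESC KD1 replicate 2, RA scrambled replicate 1 or either RA KD1 array, with an adjusted p of up to 0.103.

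Lin28b (chr10:45376617-45486314), the paralog of Lin28a, showed no such state difference. Its probe set read closer to the median of all values, 7.22, than that of Lin28a. It read 7.49 and 7.19 in RA KD1, 8.25 and 7.33 in RA KD2 and 7.89 and 7.98 in RA scrambled arrays. It read 7.29 and 7.25 in ESC KD1, 7.90 and 8.52 in ESC KD2 and 8.21 and 7.52 in ESC scrambled arrays, where the second KD2 value of each state belongs to the array that resembled the other state. Leaving out those 2 arrays, the KD1 arrays were the lowest of each state, and the ESC scrambled arrays lay far apart. RA minus ESC in scrambled cells was 0.07 (SE 0.34, adjusted p = 0.892). KD1 minus scrambled was -0.59 in RA (adjusted p = 0.572, and 0.111 with 10 arrays) and -0.59 in ESC (adjusted p = 0.752, and 0.215 with 10 arrays). With 10 arrays and the block these adjusted p-values were 0.0233 in RA and 0.0459 in ESC.

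Trim71 (chr9:114511268-114564369), an RNA-binding ubiquitin ligase of stem cells, was also lowest in scrambled cells in RA. Trim71 read 10.60 and 10.53 in RA KD1 arrays, against 11.34 and 11.36 in ESC KD1 arrays. It read 10.71 and, on the array that resembled ESC, 11.15 in RA KD2 arrays, against 11.40 and, on the array that resembled RA, 10.65 in ESC KD2 arrays. It read 9.91 and 9.91 in RA scrambled arrays, against 11.29 and 11.29 in ESC scrambled arrays. Leaving out those 2 arrays, RA arrays lay below ESC arrays in every line, and the RA scrambled arrays were the lowest of all.

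The RA minus ESC difference of Trim71 in KD1 cells was -0.78 log2 units (adjusted p = 0.0583 by limma, and 0.000125 with 10 arrays). In KD2 cells it was -0.09 as labelled (adjusted p = 1) and -0.69 in the fit of 10 arrays (SE 0.12, adjusted p = 0.00519). In scrambled cells it was -1.38, a 2.61-fold lower level in RA (SE 0.23, adjusted p = 0.0271, and SE 0.09, adjusted p = 4.57e-06 with 10 arrays). Between lines in RA, KD1 minus scrambled was 0.66 (adjusted p = 0.259, and SE 0.09, adjusted p = 0.00162 with 10 arrays). The 12-array KD2 value that follows includes the array that resembled ESC, on which Trim71 read 11.15. KD2 minus scrambled was 1.02 with 12 arrays (adjusted p = 0.17) and 0.80 with 10 (SE 0.11, adjusted p = 0.0134).

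With 10 arrays the KD1 interaction of Trim71 was 0.60 (SE 0.12, adjusted p = 0.0264), and with 12 arrays it did not pass (adjusted p = 0.748). The KD2 interaction was 0.69 with 10 arrays (adjusted p = 0.122), and 0.67 with 10 arrays and the block (adjusted p = 0.0292). The KD1 interaction was lost without any 1 of the ESC KD1, RA scrambled or RA KD1 arrays, with an adjusted p of up to 0.129. The KD2 call in RA was lost without RA scrambled replicate 1 (adjusted p = 0.0638). With 12 arrays the scrambled call was lost without any 1 of the ESC scrambled, ESC KD1, RA scrambled or RA KD1 arrays (adjusted p up to 0.206). In ESC neither knockdown line differed from scrambled for Trim71 by a called amount.

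Hmga2 (chr10:120361268-120476469), an architectural chromatin protein and the best known let-7 target, was higher in RA than in ESC. Hmga2 read 11.48 and 11.07 in RA KD1 arrays, against 9.19 and 9.18 in ESC KD1 arrays. It read 12.05 and, on the array that resembled ESC, 9.84 in RA KD2 arrays, against 10.31 and, on the array that resembled RA, 12.20 in ESC KD2 arrays. It read 12.10 and 12.27 in RA scrambled arrays, against 9.60 and 9.30 in ESC scrambled arrays. Leaving out those 2 arrays, no RA array overlapped an ESC array, and the KD1 arrays were the lowest of each state.

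The RA minus ESC difference of Hmga2 in KD1 cells was 2.09 log2 units (adjusted p = 0.0806 by limma, and 1.11e-05 with 10 arrays). In KD2 cells it was -0.31 as labelled (adjusted p = 1) and 1.75 in the fit of 10 arrays (SE 0.22, adjusted p = 0.00104). In scrambled cells it was 2.73, a 6.65-fold higher level in RA (SE 0.72, adjusted p = 0.045, and SE 0.15, adjusted p = 2.56e-06 with 10 arrays). With 12 arrays the scrambled call was lost without any 1 of the ESC scrambled, ESC KD1, RA scrambled or RA KD1 arrays (adjusted p up to 0.215).

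In RA, KD1 minus scrambled for Hmga2 was -0.91 log2 units (adjusted p = 0.731 with 12 arrays, and SE 0.15, adjusted p = 0.0059 with 10). That call was lost without RA scrambled replicate 2 or RA KD1 replicate 2 (adjusted p up to 0.0701). KD2 minus scrambled in RA was -1.24 with 12 arrays (adjusted p = 0.445) and -0.13 with 10 (adjusted p = 0.876), the first of which includes the array that resembled ESC. In ESC, KD2 minus scrambled was 0.86 with 10 arrays (SE 0.19, adjusted p = 0.0877), and with the block it was 0.78 (adjusted p = 0.0341). KD1 minus KD2 in ESC, a comparison chosen after the data were seen, was -1.12 for Hmga2 with 10 arrays (SE 0.19, adjusted p = 0.0219), where 2.19% of all genes were called, and it did not pass with 12 arrays (-2.07, adjusted p = 0.247). In RA, where 3.72% of all genes were called, the same difference was -0.78 with 10 arrays (adjusted p = 0.0638) and -0.72 with the block (adjusted p = 0.0272), and it had the opposite direction with 12 arrays, at 0.33 (adjusted p = 0.859). The KD1 interaction of Hmga2 was -0.65 with 10 arrays (adjusted p = 0.155, and 0.0413 with the block).

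Igf2bp3 (chr6:49085218-49215469), a member of the family of RNA-binding proteins that bind the Igf2 message, rose in RA scrambled cells in the fit of 10 arrays. Igf2bp3 read 11.00 and 11.01 in RA KD1 arrays, against 10.63 and 10.79 in ESC KD1 arrays. It read 11.16 and, on the array that resembled ESC, 10.37 in RA KD2 arrays, against 10.64 and, on the array that resembled RA, 11.10 in ESC KD2 arrays. It read 11.31 and 11.32 in RA scrambled arrays, against 10.72 and 10.45 in ESC scrambled arrays. Leaving out those 2 arrays, every RA array lay above every ESC array.

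The RA minus ESC difference of Igf2bp3 in KD1 cells was 0.29 log2 units (adjusted p = 0.403 by limma, and 0.0617 with 10 arrays, or 0.0283 with 10 arrays and the block). In KD2 cells it was -0.10 as labelled (adjusted p = 1) and 0.52 with 10 arrays (SE 0.16, adjusted p = 0.0466). That KD2 call was lost without either ESC KD1, RA scrambled or RA KD1 array (adjusted p up to 0.0899). In scrambled cells the difference was 0.73 (SE 0.25, adjusted p = 0.0698 with 12 arrays, and SE 0.11, adjusted p = 0.000657 with 10). KD1 minus scrambled in RA was -0.31 (adjusted p = 0.738, 0.117 with 10 arrays and 0.043 with 10 arrays and the block).

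Igf2bp1 (chr11:95957163-96005944), a paralog of Igf2bp3, differed little between groups. It read 12.21 and 12.24 in RA KD1, 12.34 and 12.17 in RA KD2 and 12.08 and 12.11 in RA scrambled arrays. It read 12.17 and 11.95 in ESC KD1, 12.46 and 12.37 in ESC KD2 and 12.40 and 12.02 in ESC scrambled arrays. The RA KD1 arrays lay above both RA scrambled and both ESC KD1 arrays, while the ESC scrambled arrays spanned most of the range. RA minus ESC was 0.17 in KD1 cells (adjusted p = 0.367, 0.297 with 10 arrays and 0.0366 with 10 arrays and the block) and -0.12 in scrambled cells (adjusted p = 0.529). Its KD1 interaction was 0.29 with 10 arrays (adjusted p = 0.44, and 0.0452 with the block). The dimmer of its 2 probe sets read 9.73 to 10.58 over the 12 arrays.

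**Figure D2:**
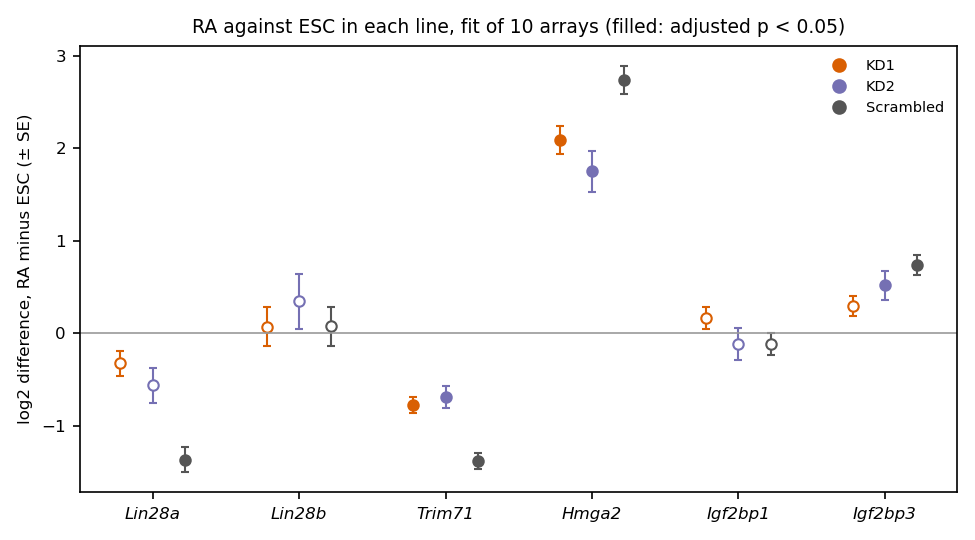
RA minus ESC difference in log2 units (y axis) of the 6 measured genes (x axis) in KD1, KD2 and scrambled cells, from the fit of 10 arrays. Error bars are standard errors and filled points passed the test. Lin28a stood at -0.33 in KD1 cells, against -1.37 in scrambled cells, while Hmga2 was above 1.7 in all 3 lines.

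Counted over the 6 measured genes, 3 were called in RA against ESC in scrambled cells with 12 arrays (Hmga2 higher, Lin28a and Trim71 lower), where 13.8% of all 19938 genes were called. With 10 arrays 4 were called, where 42.6% of all genes were. In KD1 cells 0 of 6 were called by limma with 12 arrays (11.3% of all genes). With 10 arrays 2 were called there (41.0% of all genes). With 12 arrays 2 of the 6 had an unadjusted p below 0.05 in KD1 cells, and so did 7271 of all 19938 genes. In scrambled cells 7654 of all genes had one with 12 arrays. In KD2 cells 0 were called with 12 arrays, where no gene of 19938 was called by limma and 344 had an unadjusted p below 0.05, none of the 6 among them. In the fit of 10 arrays 3 were called (20.5% of all genes). The median difference over the 6 genes in scrambled cells was -0.02, against -0.04 over all genes.

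In KD1 against scrambled cells in RA, Lin28a was the 1 gene called with 12 arrays (2.32% of all genes), and Lin28a, Trim71 and Hmga2 were called with 10 (12.1% of all genes). In KD2 against scrambled cells in RA, 0 of 6 were called with 12 arrays, 2 having an unadjusted p below 0.05 (0.271% of all genes were called), and Lin28a and Trim71 with 10 (0.963% of all genes). In ESC, 0 of 6 were called in KD1 against scrambled cells (0.0652% of all genes with 12 arrays and 1.92% with 10) and 0 in KD2 against scrambled cells (0.0853% with 12 arrays and 0.988% with 10). With 10 arrays 1 of the 6 had an unadjusted p below 0.05 in each of these comparisons, and with 12 arrays 0 had one in KD1 and 1 in KD2. For the KD1 interaction 0 of 6 were called with 12 arrays, 1 having an unadjusted p below 0.05 (0.261% of all genes were called), and Lin28a and Trim71 with 10 (4.82% of all genes). For the KD2 interaction, added after the data were seen, 0 of 6 were called with 10 arrays, 3 having an unadjusted p below 0.05 (0.351% of all genes were called). Counts of all 19938 genes with an unadjusted p below 0.05 by limma give the background. In RA with 12 arrays they were 2438 in KD1 and 2590 in KD2 against scrambled cells. In ESC they were 1507 in KD1 and 2057 in KD2 with 12 arrays, and 3142 in KD1 with 10. For the KD1 interaction with 12 arrays the count was 1601. KD1 and KD2 were set against the same scrambled arrays, so their values are not independent of each other.

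With 10 arrays the replicate block raised the share of all genes called in each comparison given here. RA against ESC then called 4 of 6 in scrambled cells (51.6% of all genes), 5 in KD1 cells (51.0%) and 4 in KD2 cells (28.4%). Against scrambled cells in RA it called 5 in KD1 (24.0%) and 2 in KD2 (5.05%), and in ESC 1 in KD1, Lin28b (10.5%), and 1 in KD2, Hmga2 (4.21%). The KD1 interaction had 4 of 6 called (14.4%) and the KD2 interaction 2 (3.06%). Between KD1 and KD2, 2 were called in RA (9.64%) and 1 in ESC (7.95%). With 12 arrays and the block Lin28a was the 1 gene called in KD2 against scrambled cells in RA, where the share of all genes was lower with the block (0.191%) than without it (0.271%). The RA KD2 arrays of that fit include the one that resembled ESC.

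**Figure D3:**
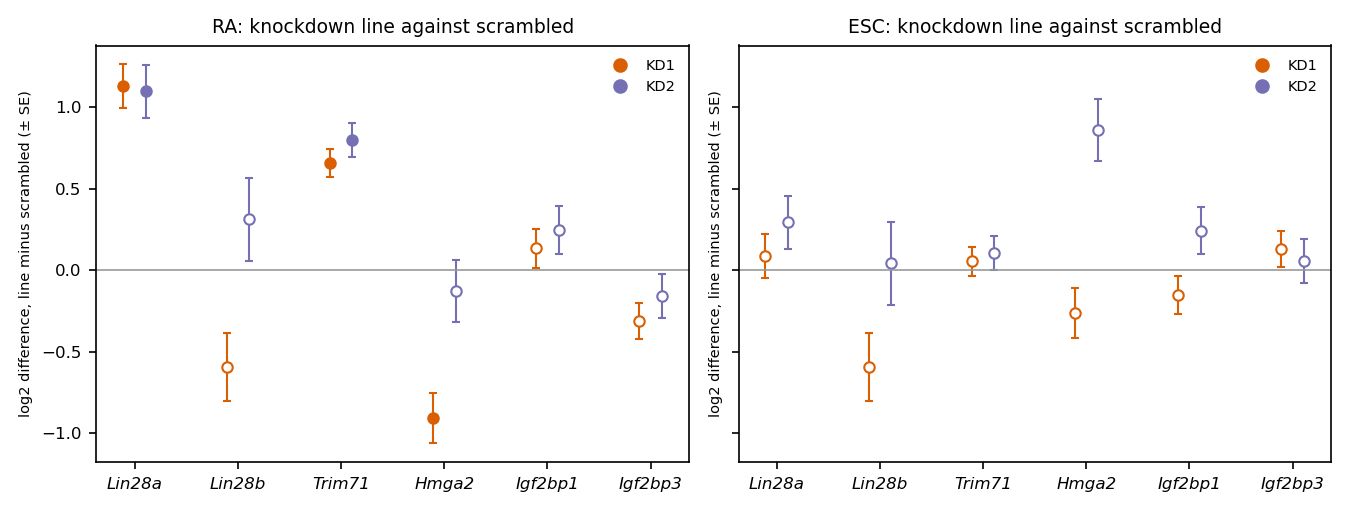
Knockdown line minus scrambled difference in log2 units (y axis) of the 6 measured genes (x axis) in RA (left) and ESC (right), from the fit of 10 arrays. Error bars are standard errors and filled points passed the test. In RA, Lin28a was 1.13 higher in KD1 and 1.10 higher in KD2, and no gene passed in ESC.

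Markers of other cell types moved with these groups, and their part in the results was not tested. Over 8 extraembryonic endoderm markers, Gata4 and Gata6 among them, the mean log2 value lay between 11.88 and 11.94 in RA KD1 arrays and at 10.18 in the remaining RA KD2 array, against 9.33 to 9.44 in RA scrambled arrays. In KD1 against scrambled cells in RA 8 of these 8 markers rose with 10 arrays (5.39% of all genes rose) and 4 with 12 (1.58% of all genes). In ESC the same mean lay between 8.02 and 8.14 in KD1 arrays and at 8.44 in KD2, against 7.46 to 7.52 in scrambled arrays. Over 7 fibroblast and mesenchyme markers the mean lay between 7.72 and 8.04 in RA KD1 arrays and at 8.62 in RA KD2, against 8.54 to 8.58 in RA scrambled arrays. Of these 7 markers 4 fell in RA KD1 with 10 arrays (6.69% of all genes fell). The naive markers lay between 9.14 and 9.34 in RA KD1 arrays and at 9.74 in RA KD2, against 8.97 to 9.53 in RA scrambled arrays. Of the 8 naive markers 2 rose and 1 fell in RA KD1 with 10 arrays, where 5.39% of all genes rose and 6.69% fell. Over 7 trophoblast markers the mean lay between 9.56 and 9.60 in RA KD1 arrays and at 9.61 in RA KD2, against 9.33 to 9.36 in RA scrambled arrays. The median over these 7 markers lay lower in RA KD1 arrays, at 8.19 and 8.20, than in RA scrambled arrays, at 8.41 and 8.72. Of these 7 markers 1 rose in RA KD1, where 5.39% of all genes rose with 10 arrays. In ESC the trophoblast mean lay at 9.76 in KD2, against 8.82 to 9.10 in scrambled arrays, a range that held both KD1 arrays. Over 6 neural markers the mean lay between 7.83 and 7.84 in ESC KD1 arrays and at 8.62 in ESC KD2, against 8.10 to 8.37 in ESC scrambled arrays. Of these 6 markers 1 fell in ESC KD1, where 1.08% of all genes fell with 10 arrays. In RA the neural mean lay between 7.94 and 8.03 in KD1 arrays and at 8.34 in KD2, against 8.06 to 8.24 in scrambled arrays. None of the 6 was called in RA KD1, where 12.1% of all genes were called with 10 arrays.

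Among 17 measured genes of let-7 processing and LIN28 partners, 5 rose and 2 fell in RA scrambled against ESC scrambled cells with 10 arrays, where 21.8% of all genes rose and 20.8% fell. With 12 arrays 0 were called by limma, 5 having an unadjusted p below 0.05. Tut4, the uridylyltransferase that acts with LIN28A, rose by 0.98 log2 units (SE 0.15). Prkra, a partner of DICER1, rose by 0.88 and Ago4, an Argonaute protein that carries microRNAs, by 0.79. Lsm1, a messenger RNA decay factor, fell by 0.52. The list's median was -0.05, against -0.04 over all genes.

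In KD1 cells 3 of the 17 rose and 0 fell in RA against ESC (Ago4 by 1.03, Prkra by 0.65 and Tut4 by 0.60), and in KD2 cells 1 rose (Tut4 by 1.23), both with 10 arrays (20.3% of all genes rose in KD1 cells and 11.0% in KD2 cells). With 12 arrays 0 of the 17 were called in either line by limma, 2 having an unadjusted p below 0.05 in KD1 cells and 0 in KD2 cells. Tut4 read 11.27 and 11.18 in RA KD1 arrays, against 11.81 and 11.72 in RA scrambled arrays, without overlap. In that comparison Tut4 fell by 0.54 and Ago1 by 0.55 with 10 arrays, 2 of 17 in all (6.69% of all genes fell), and no gene of the list rose. With 12 arrays 0 of the 17 were called there, and 2 had an unadjusted p below 0.05.

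**Figure D4:**
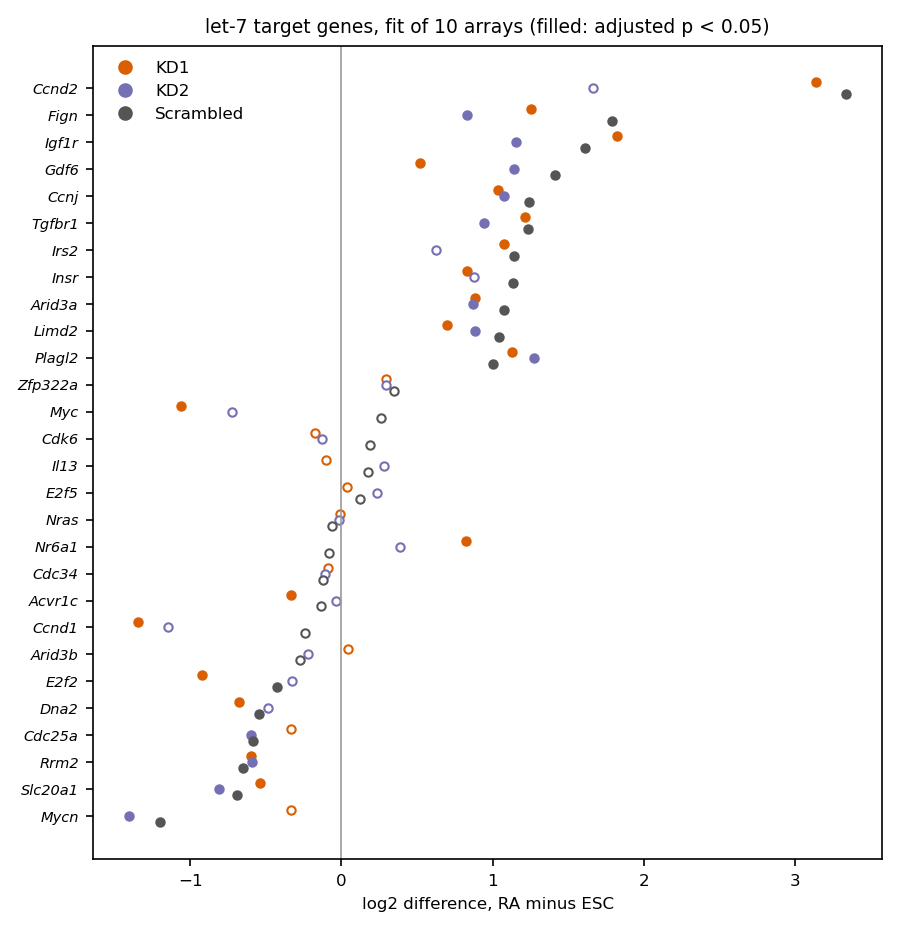
RA minus ESC difference in log2 units (x axis) of the 28 measured let-7 target genes (y axis), ordered by the value in scrambled cells, from the fit of 10 arrays. Filled points passed the test. Ccnd2 was highest in scrambled and KD1 cells, at 3.34 in scrambled cells, and Mycn lowest in scrambled and KD2 cells, at -1.40 in KD2 cells.

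The let-7 target genes moved both ways. Of 28 measured, 11 rose and 6 fell in RA scrambled against ESC scrambled cells with 10 arrays (21.8% of all genes rose and 20.8% fell), and 5 rose and 1 fell with 12 arrays (8.14% and 5.66%). The list's median was 0.18, against -0.04 over all genes. The largest changes were in Ccnd2, a G1 cyclin, at 3.34 log2 units (SE 0.63), Fign, a microtubule-severing protein, at 1.79 (SE 0.18), the growth factor receptor Igf1r at 1.61 (SE 0.17), and Gdf6, a signalling ligand of the bone morphogenetic protein family, at 1.41 (SE 0.10).

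In KD1 cells 12 of 28 rose and 7 fell in RA against ESC (20.3% and 20.8% of all genes), with Ccnd2 at 3.14, Igf1r at 1.82, Ccnd1 at -1.34 and Fign at 1.26. In KD2 cells 8 rose and 4 fell (11.0% and 9.46% of all genes), with the Myc family gene Mycn at -1.40, Plagl2 at 1.27, Igf1r at 1.15 and Gdf6 at 1.14. With 12 arrays 2 rose and 2 fell in KD1 cells (7.02% and 4.26% of all genes), and 0 were called in KD2 cells.

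In RA, 2 of the 28 targets rose and 3 fell in KD1 against scrambled cells with 10 arrays (5.39% of all genes rose and 6.69% fell), and 0 were called with 12, where 2 had an unadjusted p below 0.05. The differences with 10 arrays were -1.14 for Fign, -0.73 for Ccnj, a cyclin, 0.66 for Nr6a1 and 0.59 for Mycn. Fign read 7.36 and 6.93 in RA KD1 arrays, against 8.38 and 8.20 in RA scrambled arrays. Nr6a1, an orphan nuclear receptor, read 10.90 and 10.96 in RA KD1 arrays and 11.28 in the remaining RA KD2 array, against 10.21 and 10.32 in RA scrambled arrays. The groups did not overlap for either gene, and Nr6a1 was the 1 target called in KD2 against scrambled cells in RA, at 1.02 (SE 0.14, adjusted p = 0.0166). Nr6a1 also passed the KD1 interaction, at 0.91 (SE 0.17, adjusted p = 0.0176). With 12 arrays Nr6a1 passed neither (adjusted p = 0.202 in KD2 and 0.329 for the interaction). In ESC 0 of 28 targets were called by limma in KD1 against scrambled cells. Of all genes 1.92% were called there with 10 arrays and 0.0652% with 12. In ESC KD2 0 targets were called with 12 arrays, where 0.0853% of all genes were. With 10 arrays 6 targets had an unadjusted p below 0.05 in ESC KD1, and so did 3142 of all 19938 genes.

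**Figure D5:**
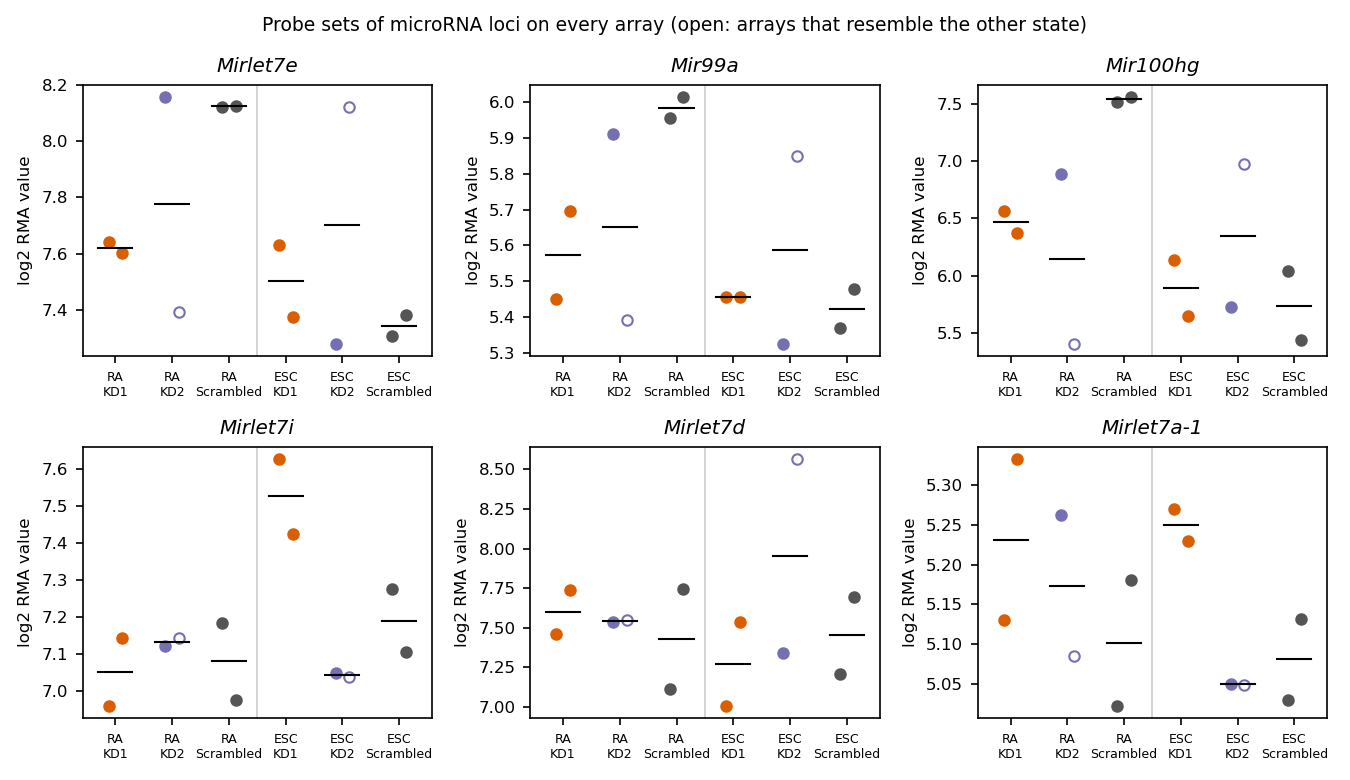
Deposited log2 RMA value (y axis, a separate scale in each panel) of the probe sets of 6 microRNA loci on each of the 12 arrays, by group (x axis). Bars are group means of 2 arrays, and open points are the arrays labelled RA KD2 replicate 2 and ESC KD2 replicate 2. For Mirlet7e and Mir100hg the RA scrambled arrays lie above the RA KD1 and ESC scrambled arrays.

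Probe sets on microRNA loci measure RNA from the locus, not the mature microRNA. Of 18 such loci measured, 3 rose and 0 fell in RA scrambled against ESC scrambled cells with 10 arrays: Mir100hg, the host gene of a let-7a and miR-100 cluster, by 1.80 (SE 0.21), Mirlet7e by 0.78 (SE 0.12) and Mir99a by 0.56 (SE 0.11). Of all genes 21.8% rose and 20.8% fell there, a larger share than of the loci, and with 12 arrays Mir100hg was the 1 locus called (adjusted p = 0.0487). The median over the 18 loci lay between 5.05 and 5.28 on the 12 arrays, under the median of all values, 7.22. The loci and all genes thus differed in level, which the shares do not allow for. Mir100hg had a mean of 5.74 in ESC scrambled and 7.54 in RA scrambled arrays. Other probe sets near the 3 called loci were not called there. Between the same groups the mean went from 4.32 to 4.14 for Mir100 and from 4.53 to 4.43 for Mirlet7a-2. For Mir99b it went from 7.95 to 7.92, and for Mir125a from 7.03 to 7.21. For Mir99ahg it went from 7.18 to 6.91, and for Mirlet7c-1 from 4.00 to 4.05. Mirlet7e, whose sequence is given above, read 7.64 and 7.60 in RA KD1 arrays, against 7.63 and 7.37 in ESC KD1 arrays. It read 8.16 in the remaining RA KD2 array, against 7.28 in the remaining ESC KD2 array, and 8.12 and 8.13 in RA scrambled arrays, against 7.31 and 7.38 in ESC scrambled arrays. The RA scrambled and RA KD2 arrays stood apart from ESC arrays, while the RA KD1 arrays overlapped ESC KD1.

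In KD2 cells the same 3 loci rose in RA against ESC with 10 arrays (Mir100hg by 1.16, Mirlet7e by 0.88 and Mir99a by 0.59; 11.0% of all genes rose). With 12 arrays 0 of the 18 were called there by limma, none having an unadjusted p below 0.05, and Mir100hg was at -0.21. In KD1 cells 0 rose and 1 fell with 10 arrays, Mirlet7i by 0.47, where 20.3% of all genes rose and 20.8% fell. In RA, 3 of 18 fell in KD1 against scrambled cells with 10 arrays (6.69% of all genes fell and 5.39% rose), namely Mir100hg by 1.07, Mirlet7e by 0.50 and Mir99a by 0.41, and none of the 18 rose. With 12 arrays 0 of the 18 were called in that comparison, and none had an unadjusted p below 0.05. In the KD1 interaction 0 of 18 passed with 10 arrays, 3 having an unadjusted p below 0.05, so the state differences of these loci were not shown to differ between KD1 and scrambled cells. Values of Mir99a lay between 5.32 and 6.02, under the median of all values on these arrays, 7.22.

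Of 4 measured mRNAs known to be repressed by TRIM71, Mbnl1, a splicing regulator, was the 1 called with 10 arrays. It rose in RA against ESC by 2.35 in KD1 cells (SE 0.14), by 1.39 in KD2 cells (SE 0.19) and by 1.42 in scrambled cells (SE 0.14). With 10 arrays 20.3% of all genes rose in KD1 cells and 21.8% in scrambled cells. In KD1 against scrambled cells in ESC 1.08% of all genes fell, and 4.82% passed the KD1 interaction. In ESC Mbnl1 was lower in KD1 than in scrambled cells, with 8.02 and 7.99 in KD1 arrays against 9.26 and 8.96 in scrambled arrays (difference -1.10, SE 0.14, adjusted p = 0.006), and its KD1 interaction was 0.93 (adjusted p = 0.0277 by limma with 10 arrays). With 12 arrays Mbnl1 passed in RA against ESC in KD1 cells (adjusted p = 0.0498) and in none of the other comparisons named here, and its difference in KD2 cells was -0.38 (adjusted p = 1).

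Of 4 measured targets of the IGF2BP proteins, Igf2, the growth factor that names the family, rose by 3.03 and Cd44, a cell surface receptor, by 1.52 in RA scrambled against ESC scrambled cells with 10 arrays, and both also passed with 12. Of all genes 21.8% rose there with 10 arrays and 8.14% with 12. In KD1 cells 3 rose, Igf2 by 3.43, Cd44 by 1.73 and the cytoskeletal Actb by 0.12, and Myc fell by 1.06, where 20.3% of all genes rose and 20.8% fell with 10 arrays. With 12 arrays Actb did not pass in KD1 cells and the other 3 did (7.02% of all genes rose and 4.26% fell). In KD2 cells Igf2 rose by 1.75 and Cd44 by 0.73 with 10 arrays. With 12 arrays 0 of the 4 were called there and none had an unadjusted p below 0.05 by limma, with Igf2 at -0.036 and Cd44 at 0.019. In RA, Cd44 was 0.56 higher in KD1 than in scrambled cells with 10 arrays, where 5.39% of all genes rose. In ESC it was 0.83 higher in KD2 than in scrambled cells with 10 arrays, which hold 1 array of ESC KD2. Neither passed with 12 arrays (adjusted p = 0.469 in RA and 0.284 in ESC).

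Across the 12 arrays, Lin28a and Trim71 had a Pearson r of 0.92, Hmga2 and Igf2bp3 of 0.88, Trim71 and Hmga2 of -0.87 and Trim71 and Igf2bp3 of -0.88. These describe arrays that fall into 2 states and share lines, and no test was made. Among 11503 genes at or above the median level, the genes most like Lin28a were Iqgap3 (r = 0.96), Cit (0.95) and Trdmt1 (0.95). Those most like Trim71 were Vrk1 (0.99), Cdca2 (0.99) and Dnmt3l (0.98), and those most like Hmga2 were Epha7, Adamts1 and Exoc7 (0.99 each). Igf2bp3 was most like Hoxa6, Armcx6 and Mthfsd (0.97 each), Igf2bp1 most like Ppp1r11 (0.95), Memo1 (0.93) and Map6 (0.91), and Lin28b most like Morc2a (0.90), Cnot2 (0.90) and Naa35 (0.89).

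The promoters of Lin28a, Trim71 and Hmga2 are shown because these 3 genes carry the largest state differences. Each is the 300 bases from 250 before to 50 after a start in RefSeq's table (GRCm38.p6, minus strand, written 5′ to 3′), and capitals mark the GC box, GGGCGG on either strand.
Lin28a, chr4:134018767-134019066: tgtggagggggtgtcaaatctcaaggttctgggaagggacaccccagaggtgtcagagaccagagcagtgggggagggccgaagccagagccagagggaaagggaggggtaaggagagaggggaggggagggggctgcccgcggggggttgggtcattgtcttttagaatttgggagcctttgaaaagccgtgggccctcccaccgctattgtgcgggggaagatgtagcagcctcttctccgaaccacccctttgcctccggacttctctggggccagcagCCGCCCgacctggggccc
Trim71, chr9:114564320-114564619: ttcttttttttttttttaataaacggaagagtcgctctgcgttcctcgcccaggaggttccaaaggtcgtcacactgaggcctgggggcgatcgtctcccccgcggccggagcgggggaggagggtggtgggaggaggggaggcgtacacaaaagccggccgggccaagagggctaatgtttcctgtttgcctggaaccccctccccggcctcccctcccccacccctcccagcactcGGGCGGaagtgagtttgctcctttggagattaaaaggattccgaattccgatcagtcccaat
Hmga2, chr10:120476420-120476719: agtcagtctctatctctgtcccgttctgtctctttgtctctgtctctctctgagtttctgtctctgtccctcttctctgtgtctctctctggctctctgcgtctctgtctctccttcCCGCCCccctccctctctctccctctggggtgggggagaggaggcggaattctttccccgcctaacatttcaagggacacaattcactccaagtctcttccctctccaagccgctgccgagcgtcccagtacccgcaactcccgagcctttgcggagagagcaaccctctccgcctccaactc
Each of the 3 held 1 GC box, with its first base at position 33 in Lin28a (the start being position 1), -12 in Trim71 and -133 in Hmga2, and 35.66% of all 32851 promoters held at least 1. GC content was 63.3% in Lin28a, 59.3% in Trim71 and 57.7% in Hmga2, against a median of 52.67% over all promoters, with 10, 19 and 12 CpG sites against a median of 7. The octamer ATTTGCAT (1.74% of all promoters), the nuclear receptor motif AGGTCA (16.26%) and the TATA box TATAAA (13.62%) had no match on either strand in these 3 windows or in those of Lin28b and Igf2bp3. The E-box CACGTG (7.15%) matched at 2 places in Igf2bp3 and 1 in Lin28b, and ACAAAG (18.71%) at 1 place in Hmga2. A match describes letters only.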

How the data were processed

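Total RNA (300 ng per sample, per the labels) from 12 samples was measured on 1-colour Affymetrix gene arrays. Values for 35556 probe sets were deposited on a log2 scale, and the submitters' processing notes name RMA, with no version or annotation given in the sources used here. The platform annotation listed 23410 probe sets, of which 21789 had 1 gene symbol and 1621 had several, and 12146 were absent from it. By Entrez ID 21698 of those with 1 symbol matched the RefSeq table of GRCm38.p6, which gave positions and sequences. For each symbol the probe set with the highest mean over all arrays was kept, giving 19938 genes. Array medians lay between 7.17 and 7.24, and the number of arrays limits the precision.

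Here, limma 3.58.1 (R 4.3.3) fitted the 6 group means with lmFit and eBayes with an intensity trend, on 12 arrays with 6 residual and 2.755 prior degrees of freedom, and on 10 arrays with 4 and 4.931. Benjamini-Hochberg adjustment covered all 19938 genes, with calls at an adjusted p below 0.05, for 8 planned and 3 added comparisons. On simulated data the same steps recovered changes of known size. Those data took their spread from the fit of 10 arrays and held no array that resembled the other state. They therefore do not show how well the fit of all 12 deposited arrays recovers changes. The members and lists were chosen with earlier results of these data known. Named genes were the members, 3 genes most correlated with each, and at most 4 called genes per list and comparison.

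Replicate numbers were checked by the correlation of same-numbered deviations from the group means, which lay between 0.141 and 0.633 for 6 pairs within a state and between -0.864 and 0.105 for 9 pairs between states. The -0.864 was the pair of KD2 groups, which hold the arrays that resembled the other state. The remaining pairs between states lay between -0.102 and 0.105. Pairs within RA lay between 0.141 and 0.197, and those within ESC between 0.169 and 0.633. The block was therefore nested within state, and its values are given where they change a call. With the block the residual and prior degrees of freedom were 4 and 2.426 on 12 arrays, and 2 and 7.348 on 10. The 10-array calls with the block thus rest more on the prior than on the residual spread of each gene. Figures used matplotlib 3.10.9.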

Additional observations from a re-analysis of the deposited data

Results flagged for a closer look

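The state differences of 2 genes differed between KD1 and scrambled cells by a test of the difference itself in the fit of 10 arrays. For Lin28a the RA minus ESC difference was -0.33 in KD1 cells, against -1.37 in scrambled cells, an interaction of 1.04 log2 units (adjusted p = 0.0171 by limma). For Trim71 it was -0.78 in KD1 cells, against -1.38 in scrambled cells, an interaction of 0.60 (adjusted p = 0.0264). Neither passed in the fit of 12 arrays, where the adjusted p was 0.276 for Lin28a and 0.748 for Trim71. The RA KD1 arrays that give these values also had the highest mean of the extraembryonic endoderm markers, and the part of that difference in the result was not tested.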

How the results depend on the processing

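The number of the 6 measured genes called moved with the 2 arrays that resembled the other state and with the replicate block. Without those 2 arrays, 2 were called in RA against ESC in KD1 cells, 3 in KD2 cells, 3 in KD1 and 2 in KD2 against scrambled cells in RA, and 2 in the KD1 interaction. With 10 arrays and the replicate block these counts were 5, 4, 5, 2 and 4, and 1 was called in KD1 and 1 in KD2 against scrambled cells in ESC. With 12 arrays and the block 1 was called in KD2 against scrambled cells in RA. With genes at or above the median of all values, 1 was called in RA against ESC in KD1 cells. Directions turned for RA against ESC in KD2 cells with 10 arrays: Lin28b was 0.34, Hmga2 1.75 and Igf2bp3 0.52, and with the block Lin28b was 0.47, Hmga2 1.77, Igf2bp1 0.046 and Igf2bp3 0.55. In KD2 against scrambled cells in ESC, Trim71 turned to 0.10 with 10 arrays and 0.11 with the block, and Lin28b to -0.14 with the block. In KD2 against scrambled cells in RA, Lin28b turned to 0.31 with 10 arrays and 0.26 with the block. Centring arrays on their median turned the KD1 interaction of Lin28b to 0.025. No result turned or crossed the threshold without the intensity trend or with the mean of probe sets. The cause of these moves was not tested, except that leaving out the 2 arrays removes the mixing of states in the KD2 groups.

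With each of the 12 arrays left out in turn, the genes called ranged from 0 to 4 in scrambled cells and from 0 to 2 in KD1 cells in RA against ESC, and from 0 to 1 in KD1 and 0 to 3 in KD2 against scrambled cells in RA. The difference between RA and ESC in scrambled cells ranged from -0.27 to 0.42 for Lin28b and from -0.31 to 0.071 for Igf2bp1, and in KD1 cells from -0.076 to 0.22 for Lin28b. In KD2 cells it ranged from -0.44 to 0.11 for Lin28a, -0.89 to 0.033 for Lin28b, -0.47 to 0.28 for Trim71, -1.42 to 0.80 for Hmga2 and -0.50 to 0.29 for Igf2bp3. In ESC, KD1 against scrambled cells ranged from -0.058 to 0.23 for Lin28a, -0.34 to 0.038 for Igf2bp1 and -0.0053 to 0.26 for Igf2bp3, and KD2 against scrambled cells from -0.25 to 0.29 for Lin28a and -0.65 to 0.10 for Trim71. In RA, KD2 against scrambled cells ranged from -0.61 to 0.31 for Lin28b, and the KD1 interaction of Lin28b from -0.35 to 0.345. Within the 10 arrays, a choice made after the data were seen, the genes called ranged from 2 to 4 for RA against ESC in KD1 cells, 0 to 1 for KD1 and for KD2 against scrambled cells in ESC, 0 to 2 for KD2 against scrambled cells in RA and 0 to 2 for the KD1 interaction. There Lin28b, Igf2bp1, Lin28a and Igf2bp3 had the ranges given above in RA against ESC in scrambled and KD1 cells, KD1 against scrambled cells in ESC and the KD1 interaction. KD2 against scrambled cells in ESC ranged from -0.305 to 0.39 for Lin28b and -0.078 to 0.19 for Igf2bp3. With 2 arrays a group, small differences are not resolved at these SEs.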
